A study of Mus musculus with 6 samples.

Results

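The transcripts described here are those of the mitochondrial genome, taken as every gene of the deposited count table whose symbol begins with mt- and which lies on the mitochondrial chromosome. There are 37 of them among 54532 genes: 13 protein-coding genes, 2 rRNA genes and 22 tRNA genes. They were measured by RNA sequencing of mouse testis in 3 libraries of the genotype 1700052I22Rik-KO (KO), in which the gene of a testis-specific long non-coding RNA was knocked out, and in 3 wild-type (WT) libraries. The labels give no age, strain, treatment or design of the knockout allele. Nor do they tie a library to an animal of its own, and p-values reflect only how far these samples spread. The comparison was made to learn what 1700052I22Rik does in spermatogenesis. Library totals lay between 17635045 and 18117593 counts, and the labels' protocols name an mRNA-seq library kit.

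The mitochondrial genome is a small circular DNA that is transcribed from both strands into long precursors. The tRNAs lie between most of the other genes and are cut out of the precursors, which frees the mRNAs and rRNAs. The mRNAs encode subunits of complexes I, III and IV of the respiratory chain and of the ATP synthase, while all other subunits, and every protein that copies, transcribes, matures or translates this genome, come from the nucleus. Mitochondrial mRNAs carry short poly(A) tails, and in several of them the tail completes the stop codon. In the testis, steroid-producing Leydig cells are rich in mitochondria, and sperm mitochondria are wrapped around the midpiece of the flagellum.

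Part of this genome has a nearly identical copy in the nuclear genome, and a read from a part without differences cannot be assigned by its sequence. The sequences below, from the GENCODE M21 transcripts (mm10), show how close the copy is. Gm29216, a pseudogene on chromosome 1, holds the end of mt-Co1, the gene of cytochrome c oxidase subunit 1. The first 60 bases of the pseudogene (chr1:24616138-24616197, minus strand) are set beside chrM:6381-6440 (plus strand), with the differing bases in capitals, to show where the match starts.
mt-Co1: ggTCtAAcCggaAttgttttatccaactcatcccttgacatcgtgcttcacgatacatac
Gm29216: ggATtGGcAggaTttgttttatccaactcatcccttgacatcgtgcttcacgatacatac

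Counted from the first base of mt-Co1, the differences are T1056A, C1057T, A1059G, A1060G, C1062A and A1066T, and the rest of the 492 aligned bases are identical. mt-Nd3, which encodes a small subunit of complex I, differs from its copy Gm28438 by 1 base in 345, T3C, in its start codon. Their first 60 bases are chrM:9459-9518 (plus strand) and chr1:24613060-24613119 (minus strand), with that base in capitals.
mt-Nd3: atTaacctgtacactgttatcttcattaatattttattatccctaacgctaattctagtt
Gm28438: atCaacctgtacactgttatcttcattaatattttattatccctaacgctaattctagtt

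For the other 5 copies 0 bases differed over the aligned part. mt-Nd4l, the shortest gene of complex I (chrM:9877-10173, plus strand), is shown whole because a read from its first 294 bases cannot be told from a read of its copy Gm10222. The capitals mark the stop codon, which the annotated copy lacks.
mt-Nd4l: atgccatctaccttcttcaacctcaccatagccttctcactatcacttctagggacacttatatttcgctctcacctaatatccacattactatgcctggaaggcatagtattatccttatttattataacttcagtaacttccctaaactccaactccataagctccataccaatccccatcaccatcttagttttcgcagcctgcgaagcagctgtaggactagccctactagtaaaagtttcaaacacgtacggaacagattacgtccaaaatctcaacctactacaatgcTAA

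The 7 annotated copies follow each other in tandem on chromosome 1 (chr1:24611535-24616197 in mm10, minus strand). Their matches lie between 6381 and 11042 of the mitochondrial genome, a span called the copied stretch here. Copies were sought in annotated transcripts only, so the chromosome 1 sequence between the annotated copies was not searched. The corresponding parts of the span hold 5 tRNA genes and most of mt-Atp8. Gm28661 matches mt-Co2 over 681 bases, Gm10925 matches mt-Atp6 over 678, Gm28437 matches mt-Co3 over 783 and Gm28439 matches the first 876 bases of mt-Nd4. Of all stretches of 100 bases in mt-Co2, 99.5% occur unchanged in an annotated transcript of the nuclear genome. That share was 99.5% for mt-Atp6, 99.9% for mt-Co3, 97.6% for mt-Nd3 and 98.5% for mt-Nd4l. It was 60.8% for mt-Nd4 and 30.8% for mt-Co1, and 3.20% for mt-Nd2. It was 0 for mt-Nd1, mt-Nd5, mt-Nd6, mt-Cytb and both rRNA genes. mt-Atp8 also had 0, since only its last 43 bases lie in an annotated copy, Gm10925, and these are fewer than 100. For stretches of 50 bases the share was 51.1% for mt-Co1, 8.19% for mt-Nd2, 7.61% for mt-Nd5 and 1.04% for mt-Rnr2. It remained 0 for mt-Nd1, mt-Nd6, mt-Cytb and mt-Rnr1. No source used here gives the read length or says how reads that match more than 1 place were treated.

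Levels per length split the protein-coding genes by that span. The 6 genes that lie by position wholly inside it, mt-Co2, mt-Atp8, mt-Atp6, mt-Co3, mt-Nd3 and mt-Nd4l, had 1.27 to 45.0 CPM per kb (counts scaled to library size, per kilobase of gene, mean of 6 libraries), with a median of 18.8. The 5 genes wholly outside it, mt-Nd1, mt-Nd2, mt-Nd5, mt-Nd6 and mt-Cytb, had 267 to 1311, with a median of 563. The 2 genes that are partly inside, mt-Co1 and mt-Nd4, had 2724 and 408. In every library each gene inside the stretch had a lower CPM per kb than each of the 5 outside. The part of the copy in the low levels of these 6 genes was not tested.

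**Figure D1:**
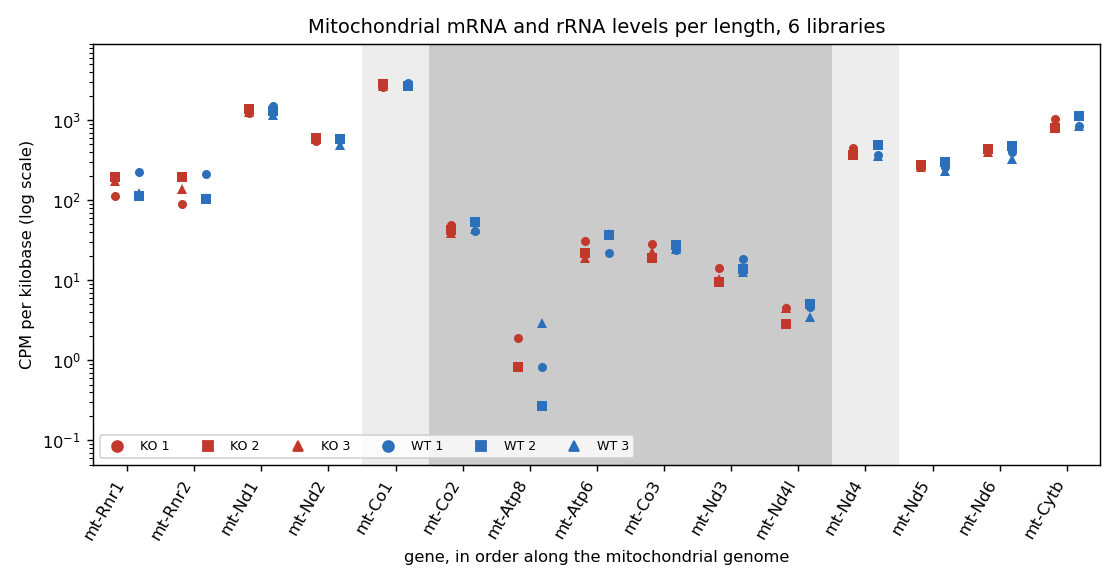
Level of each mitochondrial protein-coding and rRNA gene per library, in CPM per kilobase on a log scale, ordered along the mitochondrial genome, with KO libraries left and WT libraries right. Dark shading marks genes wholly inside the span between the outermost matches to chromosome 1 and light shading marks genes partly inside it; the 6 genes in dark shading average 1.27 to 45.0 CPM per kb, and the others at least 141.

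The copies themselves were counted too. Gm28661 had 488, 399 and 407 counts in KO 1 to KO 3, against 419, 481 and 457 in WT 1 to WT 3. Over the 6 libraries it had 2651 counts and its mitochondrial source mt-Co2 had 3305. Gm10925 had 1697 counts against 2076 for mt-Atp6, and Gm28437 had 1438 against 2057 for mt-Co3. For these 3 pairs the count of the copy was 69.9% to 81.7% of the count of its mitochondrial source. Gm10222 had 66 counts against 134 for mt-Nd4l, and Gm28438 had 156 against 495 for mt-Nd3. Where the mitochondrial gene reaches beyond the copied stretch, the counts stood far apart. Gm28439 had 379 counts and mt-Nd4 had 60324, and Gm29216 had 1419 and mt-Co1 had 451865. Of the 11 nuclear genes whose transcripts align to a mitochondrial gene at 95% identity or more over at least 100 bases, 10 had a count, 8042 in all, and 7 of the 11 are the chromosome 1 copies. The highest outside chromosome 1 was Gm13340 on chromosome 2, which aligned over 1545 bases to mt-Co1 at 97.6% identity and had 171 counts. The 7 copies took 0.00723% ± 0.000760 of the counts in KO and 0.00729% ± 0.000754 in WT (SD, n = 3), and the groups overlapped (two-sided exact permutation test, p = 0.7).

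**Figure D2:**
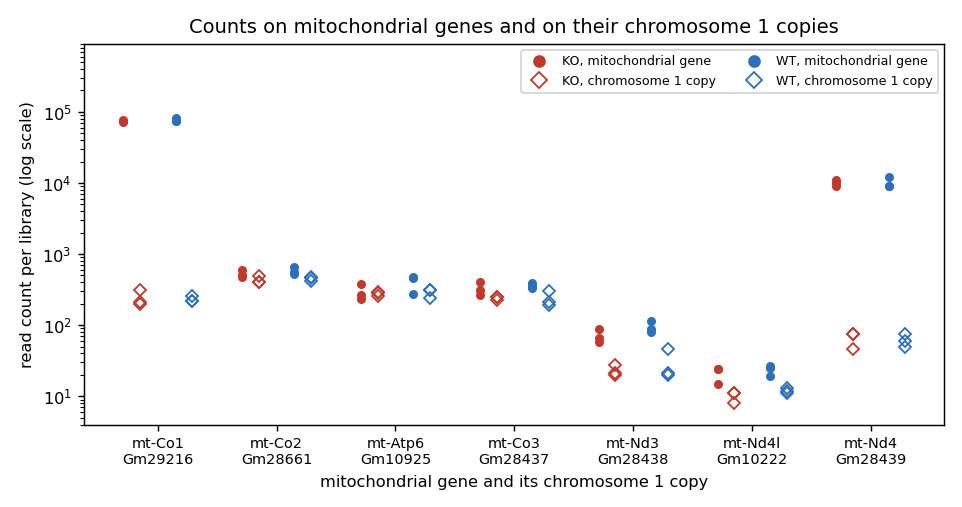
Read counts per library, on a log scale, of 7 mitochondrial genes (filled circles) and of their copies on chromosome 1 (open diamonds), KO left of WT. Gene and copy lie close together for mt-Co2, mt-Atp6 and mt-Co3, and far apart for mt-Co1 and mt-Nd4, where the gene reaches beyond the copy.

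The targeted gene matched the labels: 1700052I22Rik had 0 counts in each KO library, against 185, 175 and 218 in WT 1 to WT 3. WT 1 and KO 2 stood apart from the other libraries on the leading principal component of all tested genes (-16.1 and -21.5, against 3.94 to 13.9). The summed CPM of 5 Leydig cell markers was 612, 224 and 410 in KO 1 to KO 3, against 205, 805 and 626 in WT 1 to WT 3, so it was lowest in the same pair of libraries. The sum of 5 Sertoli cell markers was 375 to 394 CPM in KO and 402 to 463 CPM in WT, so these groups did not overlap, and 5 macrophage markers summed to 45.6 to 57.1 CPM in KO and 52.1 to 76.8 CPM in WT. The sums of the germ cell and peritubular markers overlapped between the genotypes. The 5 epididymis markers summed to 3.57 to 4.73 CPM over the libraries, with Lcn5 at 0. The part of cell make-up in the results below was not tested, and in bulk tissue fewer cells of a type and less RNA per cell cannot be told apart.

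The share of reads on the mitochondrial genome differed between the genotypes by less than the spread of the libraries. They held 0.853%, 0.909% and 0.872% of the counts of KO 1 to KO 3, against 0.930%, 0.920% and 0.823% in WT 1 to WT 3. The highest and the lowest value were both WT, and the KO values lay between them. The means were 0.878% ± 0.0286 in KO and 0.891% ± 0.0592 in WT (SD, n = 3), a difference of -0.0126 percentage points (two-sided exact permutation test, p = 0.8, where the smallest p that 3 against 3 allows is 0.1). The 95% Wilson interval of a single library, which covers counting error only, was 0.849% to 0.857% in KO 1 and 0.925% to 0.934% in WT 1. Without WT 1 the difference was 0.00687 percentage points and without WT 2 it was 0.00194, while without WT 3 it was -0.0467 and without KO 2 it was -0.0282. Without WT 1 and KO 2 together it was -0.00874.

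No member was called between the genotypes. Of the 37 members, 21 passed the filter on low counts and were tested: 12 protein-coding, both rRNA and 7 tRNA genes. Of these 21, 0 had an adjusted p of 0.05 or less in edgeR's quasi-likelihood test. Over all 19320 genes tested the call was made for 0.00518%. That share is 1 gene, the knocked-out 1700052I22Rik itself (adjusted p = 4.89e-07 in the same test). DESeq2 and limma-voom also called 0 of the 21. In simulated counts edgeR called 38% of the genes changed 1.5-fold, so a gene with such a change can go uncalled. At an unadjusted p under 0.05 in edgeR there were 2 members, both tRNA genes and both lower in KO, against 4.63% of all genes. In 0 of the 21 did the KO and WT values not overlap, against 9.32% of all genes tested, 4.69% higher and 4.63% lower in KO. The median log2 fold change of the 21 was -0.02, that of all genes tested -0.0025, and 13 members lay below 0 and 8 above. That split depended on single libraries. Without WT 3, 20 lay below 0 and 1 above, while without KO 1 or WT 1 the split was 11 and 10. With the summed mitochondrial counts as library size, which sets each gene against the mitochondrial total, 0 members were called and the smallest unadjusted p was 0.0493, for mt-Tn.

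**Figure D3:**
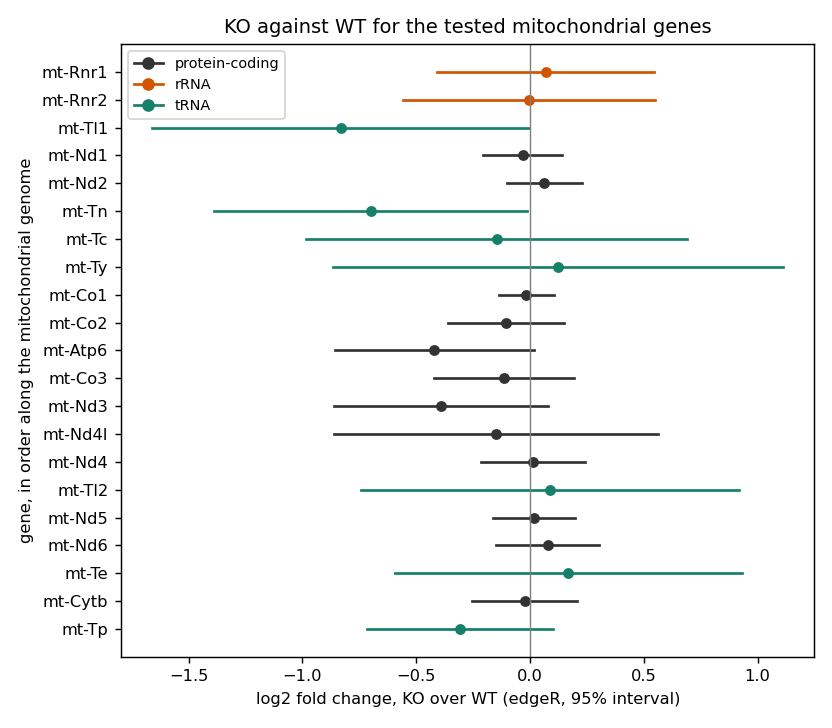
Log2 fold change of KO over WT from edgeR, with 95% intervals, for the 21 mitochondrial genes that were tested, in order along the genome from top to bottom. The intervals are narrow for the abundant mRNAs (mt-Co1, -0.14 to 0.11) and wide for the scarce tRNAs (mt-Ty, -0.87 to 1.11).

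Complex I takes electrons from NADH, and 7 of its subunits, the ND proteins of the membrane arm, are encoded here. mt-Nd1 had 1166, 1328 and 1230 CPM in KO 1 to KO 3, against 1433, 1240 and 1132 in WT 1 to WT 3. mt-Nd2 had 566, 628 and 599 CPM in KO, against 594, 610 and 511 in WT. The KO values of both genes fell within or just beyond the WT range, with log2 fold changes of -0.03 (95% interval -0.20 to 0.14) and 0.06 (-0.10 to 0.23). mt-Nd4 had 626, 509 and 559 CPM in KO, against 510, 673 and 496 in WT. mt-Nd5 had 485, 504 and 481 CPM in KO, against 481, 550 and 421 in WT. The KO libraries of mt-Nd5 lay closer together than the WT libraries, and its log2 fold change was 0.02 (-0.16 to 0.20), beside 0.01 (-0.21 to 0.24) for mt-Nd4.

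mt-Nd6 is the only protein-coding gene read from the other strand, and its end overlaps that of mt-Nd5 by 14 bases. It had 224, 226 and 211 CPM in KO, against 212, 245 and 170 in WT, a log2 fold change of 0.08 (95% interval -0.15 to 0.30). Its count relative to that of mt-Nd5 was even, at 0.462, 0.449 and 0.439 in KO 1 to KO 3, against 0.440, 0.445 and 0.404 in WT 1 to WT 3. No source used here gives the strand setting of the counting, so reads of mt-Nd6 and of RNA from the opposite strand cannot be told apart. mt-Nd3 had 5.01, 3.29 and 3.65 CPM in KO, against 6.44, 4.85 and 4.40 in WT, which overlapped (log2 fold change -0.39, -0.86 to 0.08). The log2 fold change of mt-Nd3 was -0.22 without WT 1, -0.59 without KO 1 and -0.09 without WT 1 and KO 2 together. mt-Nd4l had 24, 15 and 24 counts in KO, against 25, 27 and 19 in WT (log2 fold change -0.15, -0.86 to 0.56). Both genes lie in the copied stretch shown above.

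Cytochrome b is the subunit of complex III that the mitochondrial genome encodes. Its gene mt-Cytb had 1201, 925 and 1071 CPM in KO 1 to KO 3, against 980, 1293 and 975 in WT 1 to WT 3. The lowest KO library was KO 2, and WT 2 was the highest of all. The log2 fold change was -0.02 (95% interval -0.25 to 0.21).

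Complex IV, cytochrome c oxidase, passes electrons to oxygen, and its catalytic core is built from the COX1, COX2 and COX3 proteins. mt-Co1 ranked between first and position 3 among all genes of a library by count. It had 3996, 4395 and 4164 CPM in KO, against 4478, 4129 and 4092 in WT. This was the member with the most counts, and its groups overlapped with a log2 fold change of -0.02 (95% interval -0.14 to 0.11). mt-Co2 had 33.3, 29.2 and 26.5 CPM in KO, against 28.7, 36.6 and 30.4 in WT (log2 fold change -0.10, -0.36 to 0.15). mt-Co3 had 402, 265 and 312 counts in KO, against 338, 386 and 354 in WT (log2 fold change -0.12, -0.42 to 0.19). The KO values of mt-Co3 reached above and below its WT range.

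The ATP synthase has its membrane subunits a and 8 from here, encoded by mt-Atp6 and mt-Atp8, whose reading frames share 43 bases. The end of mt-Atp8 (chrM:7912-7969, plus strand) is printed with the shared bases in capitals, because a read confined to them belongs to both genes.
mt-Atp8 end: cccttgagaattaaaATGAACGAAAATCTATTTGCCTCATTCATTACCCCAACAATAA

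mt-Atp6 had 381, 267 and 231 counts in KO, against 271, 457 and 469 in WT. KO 1 lay among the WT values, and WT 1 among the KO values. Its log2 fold change, -0.42 (95% interval -0.86 to 0.02, adjusted p = 0.965 in edgeR), was the lowest of the tested mRNAs and was not called. It was -0.65 without KO 1, -0.63 without WT 1 and -0.27 without KO 3. mt-Atp8 had 7, 3 and 3 counts in KO, against 3, 1 and 11 in WT, and was the mRNA that did not pass the low-count filter. By position its 204 bases lie in the copied stretch, but only the 43 shared with mt-Atp6 were matched to a copy.

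Within the protein-coding transcripts the proportions were close in both genotypes. mt-Co1 made up 49.6% ± 1.68 of the protein-coding counts in KO and 49.9% ± 2.78 in WT (SD, n = 3). mt-Nd1 made up 14.7% ± 0.756 in KO and 14.9% ± 1.26 in WT, and mt-Cytb 12.7% ± 1.81 in KO and 12.7% ± 1.75 in WT. Of the 13 proportions none had non-overlapping groups. The smallest exact p was 0.3, shared by mt-Nd2 (7.08% ± 0.276 in KO, 6.73% ± 0.221 in WT), mt-Atp6 and mt-Nd3 (two-sided exact permutation tests). No proportion passed after adjustment over the 13 genes, and none could, since 3 against 3 allows no p below 0.1. Summed by complex, complex I took 37.0% ± 0.277 of these counts in KO and 36.4% ± 1.54 in WT (exact permutation p = 0.9). Complex V took 0.199% ± 0.0553 in KO and 0.266% ± 0.0833 in WT, all of it from genes that lie in the copied stretch by position (exact permutation p = 0.3).

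The 2 rRNAs of the mitochondrial ribosome varied between libraries of the same genotype. mt-Rnr1, the small subunit rRNA, had 109, 189 and 168 CPM in KO 1 to KO 3, against 218, 108 and 119 in WT 1 to WT 3. mt-Rnr2, the large subunit rRNA, had 141, 308 and 218 CPM in KO, against 336, 164 and 168 in WT. WT 1 was the highest library for both and KO 2 the next, and the lowest was KO 1 for mt-Rnr2 and WT 2 for mt-Rnr1. The log2 fold changes were 0.07 (95% interval -0.41 to 0.55) and -0.0033 (-0.56 to 0.55). Together the rRNAs took 2.90%, 5.46% and 4.40% of the mitochondrial counts in KO, against 5.93%, 2.98% and 3.51% in WT. The means were 4.25% ± 1.29 in KO and 4.14% ± 1.57 in WT (SD, n = 3; two-sided exact permutation test, p = 1.0). Without KO 2 the difference between KO and WT was -0.488 percentage points, without WT 2 it was -0.464 and without WT 3 it was -0.199, with the opposite sign to that of all libraries, 0.116. Without WT 1 it was 1.01, without KO 1 it was 0.791 and without WT 1 and KO 2 together it was 0.406. The rRNA share spanned a factor of 2.04 over the 6 libraries, whereas the share of all mitochondrial counts in the library spanned a factor of 1.13.

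The pair of libraries with the most mitochondrial rRNA also had the least mt-Cytb relative to mt-Co1. That ratio of counts was 0.301, 0.210 and 0.257 in KO 1 to KO 3, against 0.219, 0.313 and 0.238 in WT 1 to WT 3, so KO 2 and WT 1 were lowest. The ratio of mt-Nd1, which lies just downstream of the rRNA genes, to mt-Rnr2 was 8.29, 4.32 and 5.63 in KO, against 4.27, 7.55 and 6.73 in WT. Since mt-Rnr2 is its denominator, its low values in WT 1 and KO 2 restate their high mt-Rnr2 counts. In neither ratio did the genotypes separate (two-sided exact permutation tests, p = 1.0 for both). These are the libraries in which the Leydig cell markers were lowest, and the part of that in the ratios was not tested.

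**Figure D4:**
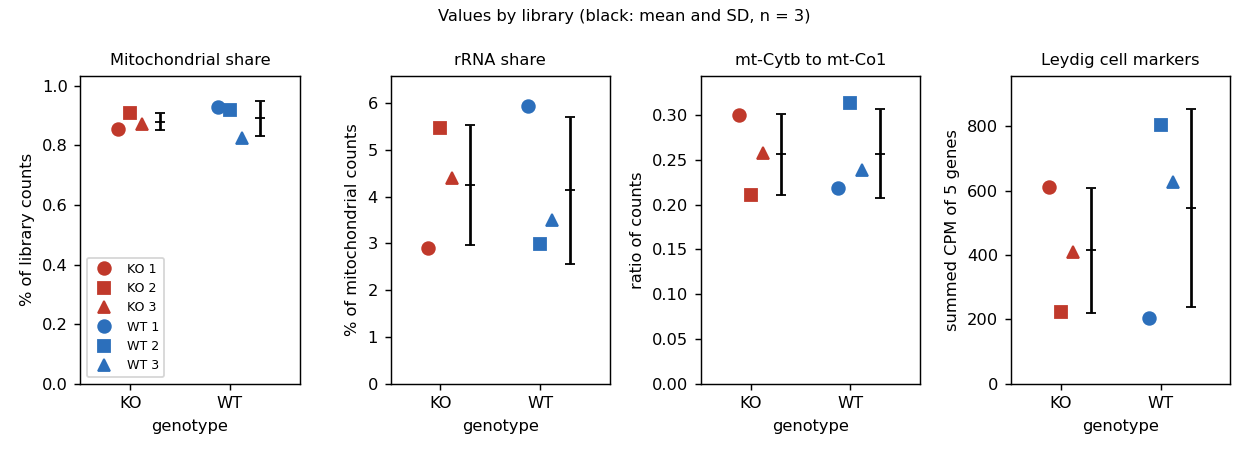
From left to right, the share of library counts on all mitochondrial genes, the share of mitochondrial counts on the 2 rRNA genes, the ratio of mt-Cytb to mt-Co1 counts, and the summed CPM of 5 Leydig cell markers, for each KO and WT library, with the mean and SD (n = 3). WT 1 and KO 2 have the highest rRNA shares (5.93% and 5.46%) and the lowest values in the panels of mt-Cytb and of Leydig cell markers.

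The tRNAs, which carry amino acids to the mitochondrial ribosome, were scarcely counted. Of the 22 genes, 16 were counted in some library, and they took 0.222% ± 0.0395 of the mitochondrial counts in KO and 0.264% ± 0.0713 in WT (SD, n = 3; exact permutation p = 0.4). The 6 at 0 in every library were mt-Tf, mt-Tv, mt-Ti, mt-Ts1, mt-Td and mt-Tk. A count of 0 over a group allows up to 3 counts, 0.0560 CPM in KO and 0.0556 in WT, which covers counting error only. The last 3 of these genes lie by position in the copied stretch. None of their stretches of 50 bases occurred in an annotated nuclear transcript, and sequence outside annotated transcripts was not searched. The 8 tRNA genes on the minus strand held 833 counts in KO and 1019 in WT, and the 14 on the plus strand held 211 in KO and 255 in WT. As the strand setting of the counting is not given, reads of a tRNA and of RNA from the opposite strand cannot be told apart. The sequences of the 4 tRNA genes with the most counts are printed 5′ to 3′ with the anticodon in capitals, since 3 of them are read from the minus strand, opposite to nearly all mRNAs.
mt-Tp: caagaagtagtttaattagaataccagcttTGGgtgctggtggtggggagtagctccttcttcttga
mt-Tc: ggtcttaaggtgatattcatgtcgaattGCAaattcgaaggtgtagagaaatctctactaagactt
mt-Tn: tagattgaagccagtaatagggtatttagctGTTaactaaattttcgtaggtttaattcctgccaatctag
mt-Tl1: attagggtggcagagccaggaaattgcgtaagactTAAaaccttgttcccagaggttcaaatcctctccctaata

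mt-Tp, the proline tRNA (chrM:15356-15422, minus strand), had 112, 94 and 121 counts in KO 1 to KO 3, against 151, 101 and 160 in WT 1 to WT 3. The groups overlapped, and the log2 fold change was -0.31 (95% interval -0.72 to 0.10). It was -0.19 without WT 3, -0.49 without WT 2 and -0.14 without WT 1 and KO 2 together. mt-Tc, the cysteine tRNA (chrM:5192-5257, minus strand), had 39, 111 and 86 counts in KO, against 154, 50 and 62 in WT. It was highest in WT 1 and KO 2, like the rRNAs, with a log2 fold change of -0.15 (-0.98 to 0.69).

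The 2 members with an unadjusted p under 0.05 in edgeR were the tRNAs for asparagine and for leucine (UUR codons). mt-Tn (chrM:5089-5159, minus strand) had 32, 34 and 52 counts in KO, against 102, 47 and 46 in WT. Most of its difference sat in WT 1, and KO 3 lay above the other WT libraries. Its log2 fold change was -0.70 (95% interval -1.39 to -0.01, adjusted p = 0.965 in edgeR's quasi-likelihood test), and it was -0.22 without WT 1 and -0.95 without KO 3. mt-Tl1 (chrM:2676-2750, plus strand), which lies between mt-Rnr2 and mt-Nd1, had 10, 44 and 21 counts in KO, against 47, 39 and 50 in WT. KO 2 lay among the WT values, and the log2 fold change was -0.83 (-1.66 to -0.0046, adjusted p = 0.965 in edgeR). It was -0.45 without KO 1 and -1.52 without KO 2, and was called in neither case. Of the other tested tRNA genes, mt-Te, the glutamate tRNA, had a log2 fold change of 0.17, mt-Ty, the tyrosine tRNA, 0.12 and mt-Tl2, the leucine tRNA for CUN codons, 0.09, and the lower ends of their intervals were at or below -0.59. The 9 detected tRNA genes that were not tested had 0 to 16 counts in any library. One of them, mt-Th, the histidine tRNA, named after its values were seen, had 8, 11 and 8 counts in KO, against 2, 2 and 3 in WT, and its groups did not overlap, as was the case for 9.32% of the genes tested.

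Across genes the order of levels per length was the same at the top in both genotypes. mt-Co1 stood first at 2709 CPM per kb in KO and 2740 in WT, then mt-Nd1 at 1297 in KO and 1325 in WT, mt-Cytb at 932 and 946, and mt-Nd2 at 576 and 551. The ranges of these 4 genes over the 6 libraries did not overlap. mt-Nd6 (425 in KO, 402 in WT) and mt-Nd4 (410 and 406) overlapped each other. mt-Nd5 followed at 269 in KO and 265 in WT, and below it mt-Rnr1 at 163 and 155 and mt-Rnr2 at 140 and 141, whose ranges overlapped. Beyond these came mt-Tp, at 91.7 in KO and 113 in WT, above all 6 mRNAs of the copied stretch. The rRNAs and mRNAs differ in poly(A) tail length, and the part of capture by the mRNA-seq kit in this order was not tested.

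The genes also differ in how they start and end. In the annotation 3 of the 13 coding genes, mt-Co3, mt-Nd4 and mt-Cytb, end 1 base past their last whole codon, on a T, where the poly(A) tail is known to complete the stop codon. Start codons were GTG for mt-Nd1, ATA for mt-Nd2, ATT for mt-Nd3 and ATC for mt-Nd5, and ATG for the other 9. The 3 genes with an incomplete stop codon stood at very different levels, mt-Cytb near 939 and mt-Co3 near 24.4 CPM per kb. However, mt-Cytb lies outside the copied stretch, mt-Nd4 partly inside it and mt-Co3 wholly inside it. The part of the copy in this difference was not tested.

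The nuclear genes that serve this genome were not called either. Of 17 genes listed under copying and transcription of mitochondrial DNA 0 were called in edgeR, and 1 had an unadjusted p under 0.05. Over all genes tested these shares were 0.00518% and 4.63%, which also stand beside the lists below. Mterf4 and Tfb1m are in this list, although their roles given below concern the ribosome or an rRNA. The median log2 fold change of the 17 was -0.01, against -0.0025 for all genes tested. The median was 0.0261 without KO 3 and 0.0266 without WT 3. The gene with the smallest p was Polg, the catalytic subunit of the mitochondrial DNA polymerase, with 88.7 ± 7.20 CPM in KO and 105 ± 4.89 in WT (SD, n = 3; log2 fold change -0.25, 95% interval -0.43 to -0.06, adjusted p = 0.965). Mterf4, which acts in assembly of the mitochondrial ribosome, had -0.23, Tfb1m, an rRNA methyltransferase, 0.14, and Tfam, which packages the DNA and starts its transcription, 0.16. The groups of Polg and Mterf4 (lower in KO) and of Tfb1m (higher in KO) did not overlap, 3 of 17 against 9.32% of all genes tested. In the lists below, groups did not overlap for 1 gene higher and 3 lower in KO of the 39 for RNA maturation and decay. The counts were 0 higher and 1 lower of 22 for tRNA charging, of 31 nuclear subunits and of 22 markers of mitochondrial content. For the 7 germ cell isoforms they were 0 in both directions.

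Of 39 genes for processing, modification and decay of mitochondrial RNA 0 were called, 0 had an unadjusted p under 0.05, and the median log2 fold change was -0.03. The lowest was Trmt10c, a subunit of the RNase that cuts the 5′ ends of the tRNAs, at -0.41 (95% interval -0.83 to 0.02). Supv3l1, the helicase of the RNA-degrading complex, had -0.20, Gtpbp3, which modifies tRNAs, -0.35, and Ptcd2 0.15. Of 22 genes that charge mitochondrial tRNAs 0 were called, 1 had an unadjusted p under 0.05 and the median was -0.02. That gene was Vars2, the valyl-tRNA synthetase, at -0.43 (-0.81 to -0.04), while Wars2 for tryptophan had 0.46 and Aars2 for alanine -0.14.

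Lars2, the leucyl-tRNA synthetase of mitochondria, was the one gene of these lists that was called under some settings. It had 231, 161 and 388 CPM in KO 1 to KO 3, against 285, 126 and 126 in WT 1 to WT 3. WT 1 lay above KO 1 and KO 2, and the log2 fold change was 0.54 (adjusted p = 0.965 in edgeR). Its adjusted p was 1.46e-07 with no low-count filter, and 0.00383 without WT 1 and KO 2, where the log2 fold change was 1.30. CT010467.1, which is annotated as rRNA and was looked up after the value of Lars2 was seen, had 1166, 547 and 1614 CPM in KO, against 1062, 666 and 676 in WT. KO 3, KO 1 and WT 1 were the 3 highest libraries for both, and the part of rRNA reads in the level of Lars2 was not tested.

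The nuclear partners of the mitochondrial proteins sat slightly below 0. Of 31 nuclear subunits of complexes I, III, IV and the ATP synthase 0 were called in edgeR, against 0.00518% of all genes tested. At an unadjusted p under 0.05 there was 1, against 4.63% of all genes. The log2 fold change was below 0 for 25 of the 31, against 9792 of the 19320 genes tested, and the list median was -0.08. That median was -0.0229 without WT 2, -0.0352 without KO 2 and -0.12 without WT 1. Cox6a1, a subunit of complex IV, had 108 ± 23.4 CPM in KO and 135 ± 22.8 in WT (SD, n = 3; log2 fold change -0.33, 95% interval -0.63 to -0.02, adjusted p = 0.965). Cox4i1 and Cox6c, of the same complex, both had -0.19, and Atp5d of the ATP synthase -0.17. As deviations from each gene's WT mean on the log2(CPM + 1) scale, the list medians of KO 1 to KO 3 were 0.0022, -0.17 and -0.08, against -0.11, 0.09 and 0.01 for WT 1 to WT 3, so WT 1 and KO 2 were lowest. Those are also the libraries with the lowest Leydig cell markers, and the part of cell make-up was not tested.

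Isoforms of mitochondrial proteins that belong to germ cells lay close to 0. All 7 had log2 fold changes between -0.0095 and 0.04, with a median of 0.02 and 0 called in edgeR or at an unadjusted p under 0.05. The median was -0.0227 without WT 3 and 0.0803 without WT 2, so its sign rested on 1 library. Cox8c, a germ cell form of a complex IV subunit, had 389 ± 2.52 CPM in KO and 378 ± 19.5 in WT, and Pdha2, of pyruvate dehydrogenase, had 199 ± 6.67 in KO and 193 ± 9.11 in WT (SD, n = 3). Cox6b2, likewise of complex IV, had a log2 fold change of 0.02 and Cyct, the testis cytochrome c, 0.02. Among 22 markers of mitochondrial content, such as matrix enzymes and outer membrane channels, 0 were called in edgeR, 0 had an unadjusted p under 0.05, and the median log2 fold change was -0.05, which became -0.0066 without WT 2 and -0.09 without WT 1. Slc25a4, an ADP/ATP carrier, had -0.28 (95% interval -0.58 to 0.02), Mdh2 -0.18, and the channel genes Vdac3 and Vdac1 had 0.11 and -0.16.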

How the data were processed

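RNA of testis was sequenced in 3 KO and 3 WT libraries. The deposited table holds raw counts for each Ensembl gene. The submitters' processing notes name HISAT2 2.0.0 and mm10; no source used here names the counting tool or its strand setting. From the counts, genes were kept with filterByExpr (minimum count 10, minimum total 15), 19320 in all, scaled with TMM and tested with edgeR 4.0.16 (glmQLFit, glmQLFTest, all 6 libraries, no covariate, Benjamini-Hochberg over all genes, threshold 0.05). CPM are TMM-scaled, CPM per kb divide by the deposited gene length, and intervals are at 95%, from the quasi-likelihood F statistic. Shares and proportions were tested with exact permutation (SciPy 1.17.1). Copies were sought in GENCODE M21 transcripts by identical windows of 50, 100 and 150 bases on both strands, and with BLAST+ 2.17.0; M21 and the table gave the members the same lengths. Alternatives used DESeq2 1.42.0 and limma 3.58.1 in R 4.3.3. The fit was tried on simulated counts with 200 of 19320 genes changed. It called 38% of the 200 at a 1.5-fold change, 75.5% at 2-fold and 97% at 4-fold, with 5, 16 and 13 false calls. For the window search, a piece of mt-Nd5 was only sought in mt-Nd5 itself, so the search of the transcripts was not tested.

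The members, the nuclear lists and the markers were chosen with earlier results of these data known. Every member is reported; from each nuclear list the 4 tested genes with the smallest p are named, and of the nuclear copies the 6 with the most counts. Gm28438 and Gm10222 complete the set on chromosome 1. mt-Th, CT010467.1 and the exclusion of WT 1 and KO 2 together were added after the data were seen. Columns were matched to samples by name, with 0 left unmatched.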

Additional observations from a re-analysis of the deposited data

How the results depend on the processing

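The count of called mitochondrial genes was 0 under every alternative tried for it: 3 other scalings (DESeq2 size factors, library size alone, upper quartile), no low-count filter, a minimum mean of 5 CPM, the tools limma-voom and DESeq2, the replicate block, leaving out any library, and leaving out WT 1 with KO 2. Over all genes 1 was called, 1700052I22Rik itself. The count was 50 with no low-count filter, 2 with DESeq2, 9 without WT 1 and KO 2, and 1 to 3 with 1 library left out. Of the nuclear lists 1 gene, Lars2, was called with no filter and 1, again Lars2, without WT 1 and KO 2. The fit with no filter tests 32986 genes; the cause of the other changes was not tested.

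Of 328 log2 fold changes of members under alternatives, 286 kept their sign and 42 did not. mt-Nd4 was at -0.0013 with library size alone. mt-Rnr2 was at 2.48e-05 with DESeq2, 0.0086 with limma-voom, 0.0098 against the mitochondrial total and 0.0246 with the replicate block. Without WT 1 and KO 2, mt-Nd1 was at 0.0184, mt-Cytb 0.0072, mt-Nd5 -0.0037, mt-Rnr2 0.11, mt-Tc 0.18, mt-Te -0.0428 and mt-Nd4l 0.0850. With 1 library left out, the range was -0.0484 to 0.0257 for mt-Co1, -0.11 to 0.0662 for mt-Nd1, -0.12 to 0.12 for mt-Cytb, -0.0676 to 0.17 for mt-Nd4, -0.0111 to 0.11 for mt-Nd2, -0.0732 to 0.12 for mt-Nd5, -0.0496 to 0.21 for mt-Nd6, -0.12 to 0.46 for mt-Rnr1, -0.31 to 0.42 for mt-Rnr2, -0.19 to 0.0054 for mt-Co2, -0.29 to 0.0156 for mt-Co3, -0.29 to 0.0447 for mt-Nd4l, -0.48 to 0.52 for mt-Tc, -0.0746 to 0.46 for mt-Te, -0.0810 to 0.32 for mt-Tl2 and -0.25 to 0.78 for mt-Ty.

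With 1 library left out, the difference in mitochondrial share ran from -0.0467 to 0.00687 percentage points and that in rRNA share from -0.488 to 1.01. For shares of protein-coding counts it ran from -1.93 to 0.661 for mt-Co1, -0.655 to 0.507 for mt-Nd1, -0.953 to 0.868 for mt-Cytb, -0.278 to 0.641 for mt-Nd4 and -0.0526 to 0.391 for mt-Nd5. Without WT 1 and KO 2 it was 0.123 for mt-Nd1, 0.0768 for mt-Cytb and -0.0130 for mt-Nd5. Adding the chromosome 1 copies moved the mitochondrial share difference to -0.0127 only.

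The labels do not say that equal replicate numbers pair the libraries. Deviations of same-numbered libraries correlated at -0.244, -0.0229 and 0.142. With so few libraries these values cannot decide whether the libraries were paired. With the replicate block 1 gene was called in all, and the share difference was -0.0126 (exact sign-flip p = 0.75). With 1 library left out, the list median was lowest at -0.0521 (without KO 2) for RNA maturation and decay, and for tRNA charging it ran from -0.0270 (without WT 1) to -0.0077 (without WT 2). Counting error weighs most on members with few counts, among them most tRNAs and mt-Atp8; the cause of their low counts was not tested. A comparison of 3 against 3 cannot pass an exact test.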
